A study of Mus musculus with 9 samples.

Results

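The comparison set the olfactory bulb of mice that had breathed formaldehyde on 7 days against that of mice that had breathed it on 1 day, across the microRNAs (miRNAs) measured on Exiqon arrays. The olfactory bulb is the first relay of smell in the brain, where the axons of the sensory neurons of the nose end, and formaldehyde is an irritant gas. The mice of all groups were ICR males of 8 weeks; ICR is an outbred stock. Exposure took place in a chamber, at 3 ppm and for 6 hours, either once (FA 1 day, replicates 1, 2 and 4) or on 7 days in a row (FA 7 days, replicates 1, 2 and 3), and the 3 control arrays came from mice kept in the same way without the gas. Each group has 3 arrays. The labels do not say that each array holds a separate animal, so the p-values measure the spread between these samples, which may be technical. They also do not say when after the exposure, or at which time point for the controls, the bulbs were taken.

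Members of the comparison were mouse probes whose foreground minus background intensity, averaged over the spots of the probe, was at least 30 on all 3 arrays of either exposed group. This held for 454 of the 1027 mouse probes, or 44.2%. Of these, 14 name more than 1 miRNA and go here by the first. Of all members, 368 were detected at that level on all 6 exposed arrays, 76 qualified through FA 1 day only and 10 through FA 7 days only. The 3 probes just inside the threshold were miR-466m-5p at 30, miR-346-3p at 30.25 and miR-468-3p at 30.75, and the 3 just outside were miR-16-1-3p at 29.5, miR-297a-5p at 29.25 and miR-496-3p at 29.25. All values below are normalized log2 intensities unless stated otherwise, and a difference is FA 7 days minus FA 1 day on that scale. Each probe binds with its own efficiency, so the levels of different probes were not compared, and where a ratio of 2 arms of a hairpin is given, it is read only between arrays.

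A miRNA is a short RNA that is cut from a hairpin precursor and loaded into an Argonaute protein, where its seed, the bases near its 5′ end, pairs with messenger RNAs and lowers their translation or stability. Either arm of the hairpin (5p or 3p) can yield a mature miRNA, several hairpins can be cut from 1 transcript (a cluster), and miRNAs with the same seed share many targets. In the brain, miR-124 and miR-9 are known from neurons, miR-219 and miR-338 from maturing oligodendrocytes, miR-223 and miR-142 from leukocytes, and miR-144 and miR-451 from red blood cells. All 11 of the miRNAs taken as markers of bulb tissue were detected on all 9 arrays, while miR-122 of liver, miR-216 and miR-217 of pancreas and miR-208a of heart were not detected on any. Of the other markers of those organs, miR-375 was detected on all 9 arrays and miR-208b on 1.

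The mature sequences of the miRNAs that lay at the ends of the comparison are shown with the seed (bases 2 to 8) in capitals, from RefSeq on GRCm38.p6, because several of them share a seed. Among those with higher values after 7 days, miR-146a-5p and miR-146b-5p share a seed although they lie on different chromosomes, and so do let-7i-5p and let-7g-5p, and miR-221-3p and miR-222-3p, which come from 1 cluster on the X chromosome. They lie at chr11:43374435-43374456 (minus strand), chr19:46342790-46342811 (plus), chr10:122985698-122985719 (minus), chr9:106178846-106178867 (plus), chrX:19146307-19146329 (minus) and chrX:19146901-19146923 (minus).
miR-146a-5p: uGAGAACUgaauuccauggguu
miR-146b-5p: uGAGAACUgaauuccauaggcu
let-7i-5p: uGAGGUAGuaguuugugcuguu
let-7g-5p: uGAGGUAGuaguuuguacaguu
miR-221-3p: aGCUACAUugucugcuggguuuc
miR-222-3p: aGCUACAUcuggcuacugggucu

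Among those with lower values, miR-200a-5p and miR-200b-5p share a seed from which that of miR-141-5p, of the same family, differs near its end, and both arms of miR-199a come with miR-214-3p from 1 stretch of chromosome 1. They lie at chr4:156054949-156054970 (minus), chr4:156055721-156055742 (minus), chr6:124717959-124717980 (minus), chr1:162217844-162217866 (plus, also at a second locus), chr1:162217883-162217904 (plus, also at a second locus) and chr1:162223438-162223459 (plus).
miR-200a-5p: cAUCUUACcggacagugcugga
miR-200b-5p: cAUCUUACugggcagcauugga
miR-141-5p: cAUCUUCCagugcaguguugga
miR-199a-5p: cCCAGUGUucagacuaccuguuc
miR-199a-3p: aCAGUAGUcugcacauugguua
miR-214-3p: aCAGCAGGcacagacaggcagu

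One of the 6 exposed arrays, FA 7 days replicate 3, stood apart. It detected 398 mouse probes, where the FA 1 day arrays detected 465 to 505 and FA 7 days replicates 1 and 2 detected 481 and 468. Over the members its Pearson correlation with the other exposed arrays was 0.878 to 0.915, where replicates 1 and 2 of FA 7 days correlated at 0.983 and the FA 1 day arrays with one another at 0.961 to 0.989. Its median spike-in signal was 81.25 above background, against 228 to 475.25 on the other exposed arrays, and its deviations from the mean of the exposed arrays correlated with the GC content of the miRNA at 0.355, where the others lay between -0.27 and -0.01 (n = 343 miRNAs). Of the 76 members that qualified through FA 1 day only, 60 were detected on FA 7 days replicates 1 and 2 and were missed on replicate 3. The mean number of mouse probes detected was 484.7 ± 20.01 (SD, n = 3) after 1 day and 449 ± 44.6 (SD, n = 3) after 7 days (two-sided exact permutation test, p = 0.4, where 3 against 3 cannot go below 0.1). Values without this array are given beside those with it for each list and for most of the miRNAs described below that it moves by over 1.5 times.

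No miRNA passed the test for a difference between 7 days and 1 day. In limma's model over all 9 arrays, 0 of the 462 tested probes (percent called, 0) had an adjusted p under 0.05, and the smallest adjusted p was 0.422. Before adjustment, 38 probes, all of them members, had p under 0.05, 21 of them higher (4.55% of the tested probes) and 17 lower (3.68%) after 7 days. With arrays scaled to a common median that split was 25 higher and 12 lower, and from the authors' deposited ratios 23 and 10. Weighting each array by its fitted quality, which gave FA 7 days replicate 3 a weight of 0.174 and FA 1 day replicate 1 a weight of 3.56, led to 23 calls at an adjusted p under 0.05, 17 higher and 6 lower, although the iterative fit of the weights gave a convergence warning; the other 21 alternative settings gave 0 calls, with a smallest adjusted p of 0.0556 to 1. Among these 23, 14 belong to the 24 members described first below, and 18 had an unadjusted p under 0.05 without weights. The exposed groups did not overlap in 93 probes (20.1% of those tested): in 55 the 3 FA 7 days arrays lay above all FA 1 day arrays (11.9%) and in 38 below (8.23%). This balance moved with the scaling of the arrays, since 66 were above and 21 below with that median scaling, and 57 above and 27 below from the authors' deposited ratios.

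The members as a whole were balanced. Of the 454, 230 had a negative difference, 1 (miR-124-3p) was at 0 and the others were positive, with a median of -0.00 and a span from -1.22 to 1.19. The central part of the members, from the 5th to the 95th percentile, lay between -0.65 and 0.65. Only 4 exceeded 1 in size. The offset of 50 that is added before log2 draws the differences of dim probes towards 0: from the deposited ratios, which have no offset, miR-34c-5p differed by -2.02 in place of -0.87 and miR-871-3p by -2.15 in place of -0.76. With 3 arrays a group, the 95% interval reached 0.62 to either side of a difference at the median, so differences below that size were within the error for most members. Across the 454 members the differences with and without FA 7 days replicate 3 correlated at 0.755 (Pearson) and 0.725 (Spearman), a description across miRNAs that share 5 of the 6 arrays. In 107 members the direction turned when that array was left out. It turned in none of the 38 with an unadjusted p under 0.05, but these were chosen by p on the same arrays. In 36 of the 38 the groups did not overlap, so leaving out 1 array could hardly turn their direction.

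**Figure D1:**
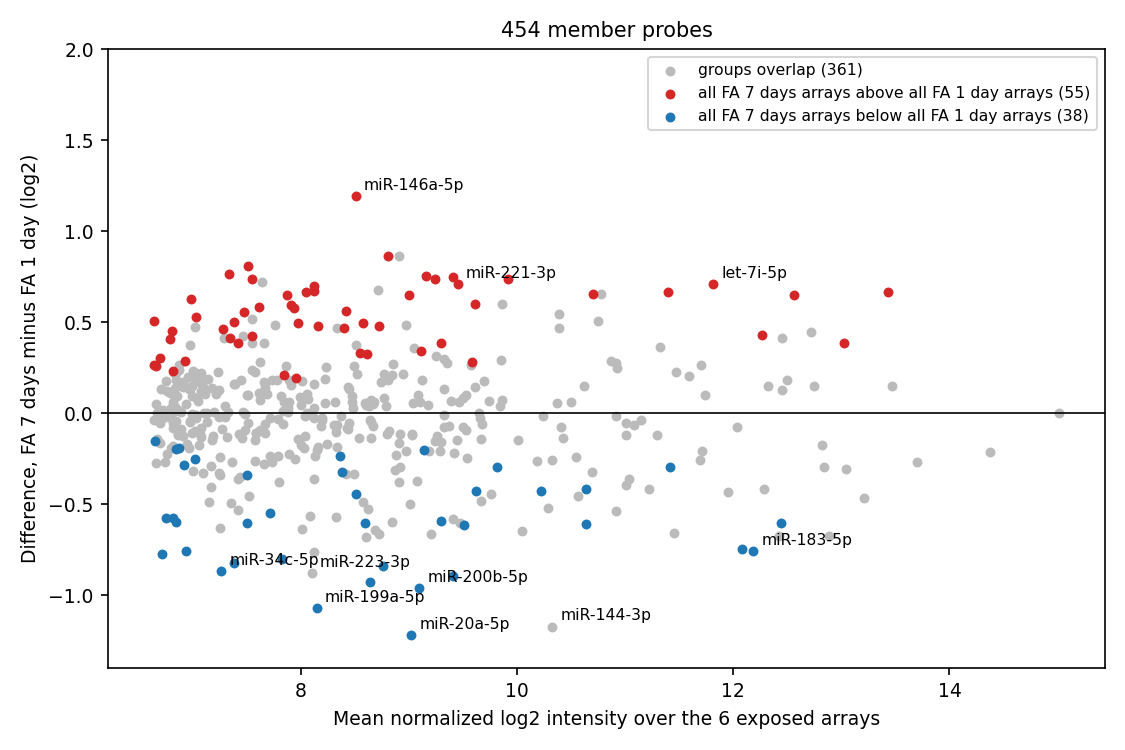
The difference between FA 7 days and FA 1 day (y axis, log2) for each of the 454 member probes is plotted against its mean normalized log2 intensity over the 6 exposed arrays (x axis). Red marks the 55 members with all FA 7 days arrays above all FA 1 day arrays, blue the 38 with all below and grey the rest. Most points lie between -0.65 and 0.65 at all levels, and only 4 lie beyond 1 in size.

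The miRNAs with the smallest unadjusted p-values among the higher members were led by miR-146a-5p and miR-1949. miR-146a is induced by the inflammatory factor NF-κB and represses the signalling proteins TRAF6 and IRAK1. Its values were 8.08, 7.82 and 7.84 after 1 day, 9.18, 8.76 and 9.38 after 7 days and 9.20, 8.79 and 8.33 in the controls. Every FA 7 days array lay above every FA 1 day array, while the controls spread through the range of the 7-day arrays and below it. The related miR-146b-5p had 8.98, 8.63 and 8.74 after 1 day and 9.59, 9.48 and 9.54 after 7 days. Here too the groups did not overlap, and the difference was 0.75 ± 0.24 (SE, n = 3 and 3; limma, adjusted p = 0.422), the same size, 0.75, without replicate 3. miR-1949 lay at 7.19, 7.06 and 7.08 after 1 day and at 7.89, 7.67 and 8.21 after 7 days, with a difference of 0.81 ± 0.19 (SE, n = 3 and 3; limma, adjusted p = 0.422). With array weights, from the fit with that warning, its adjusted p was 0.0131.

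miR-221 and miR-222 repress the cell cycle inhibitor p27 and are abundant in endothelium. miR-221-3p had 9.08, 9.0 and 9.21 after 1 day and 9.76, 9.92 and 9.74 after 7 days, a difference of 0.71 ± 0.19 (SE, n = 3 and 3; limma, adjusted p = 0.422). miR-222-3p had 10.52, 9.87 and 10.73 after 1 day and 11.12, 10.78 and 11.19 after 7 days, a difference of 0.65 ± 0.24 (SE, n = 3 and 3; limma, adjusted p = 0.434) that was 0.38 without FA 1 day replicate 2. For both, all FA 7 days arrays lay above all FA 1 day arrays. The other arm of the first hairpin, miR-221-5p, differed by -0.03, or 0.03 without replicate 3. Also on the vascular list was miR-126-3p, from an intron of the endothelial gene Egfl7, at -0.66 with replicate 3 and 0.09 without it. Of the 8 vascular members, 4 were higher and 4 lower, with a median of 0.02 that was -0.22 from the deposited ratios. Without replicate 3 of FA 7 days, 7 of the 8 were higher and the median was 0.32.

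miR-7b-5p, which shares its seed with miR-7a, a regulator of Pax6 and of dopaminergic neurons of the bulb, had 7.05, 6.76 and 7.05 after 1 day and 7.70, 7.90 and 7.54 after 7 days. The groups did not overlap, and the difference was 0.76 ± 0.24 (SE, n = 3 and 3; limma, adjusted p = 0.422). Of the 19 members of the neuronal list, 11 were higher and 7 lower, with a median of 0.05. That median was 0.32 with median scaling and 0.30 without normalization between arrays, and without replicate 3 it was 0.37 with 14 of 19 higher. miR-124-3p takes the top rank on every array, so quantile normalization gives it the same value everywhere and its difference carries no information here. miR-9-5p differed by 0.38, miR-128-3p by 0.43 and miR-7a-5p by 0.25.

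The oligodendrocyte list, miR-219 and miR-338, which promote the maturation of these myelin-forming cells, had 4 of 4 members higher, with a median of 0.65, and 0.78 without replicate 3. miR-219-2-3p had 7.37, 7.28 and 7.34 after 1 day and 8.00, 8.01 and 7.72 after 7 days, and miR-338-5p had 8.04, 7.24 and 8.03 after 1 day and 8.45, 8.46 and 8.50 after 7 days. The groups did not overlap for either, with differences of 0.58 ± 0.18 and 0.70 ± 0.25 (SE, n = 3 and 3; limma, adjusted p = 0.422 for each), the latter 0.44 without FA 1 day replicate 2. miR-219-5p and miR-338-3p differed by 0.72 and 0.60, with overlapping groups, and by 1.09 and 0.87 without replicate 3. miR-338-3p differed by 0.35 without FA 1 day replicate 2. In bulk tissue, a change in the number of cells of a type and a change in RNA per cell cannot be told apart. The summed foreground minus background of the oligodendrocyte markers ran from 572 to 1002 after 1 day and from 633 to 2061 after 7 days.

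**Figure D2:**
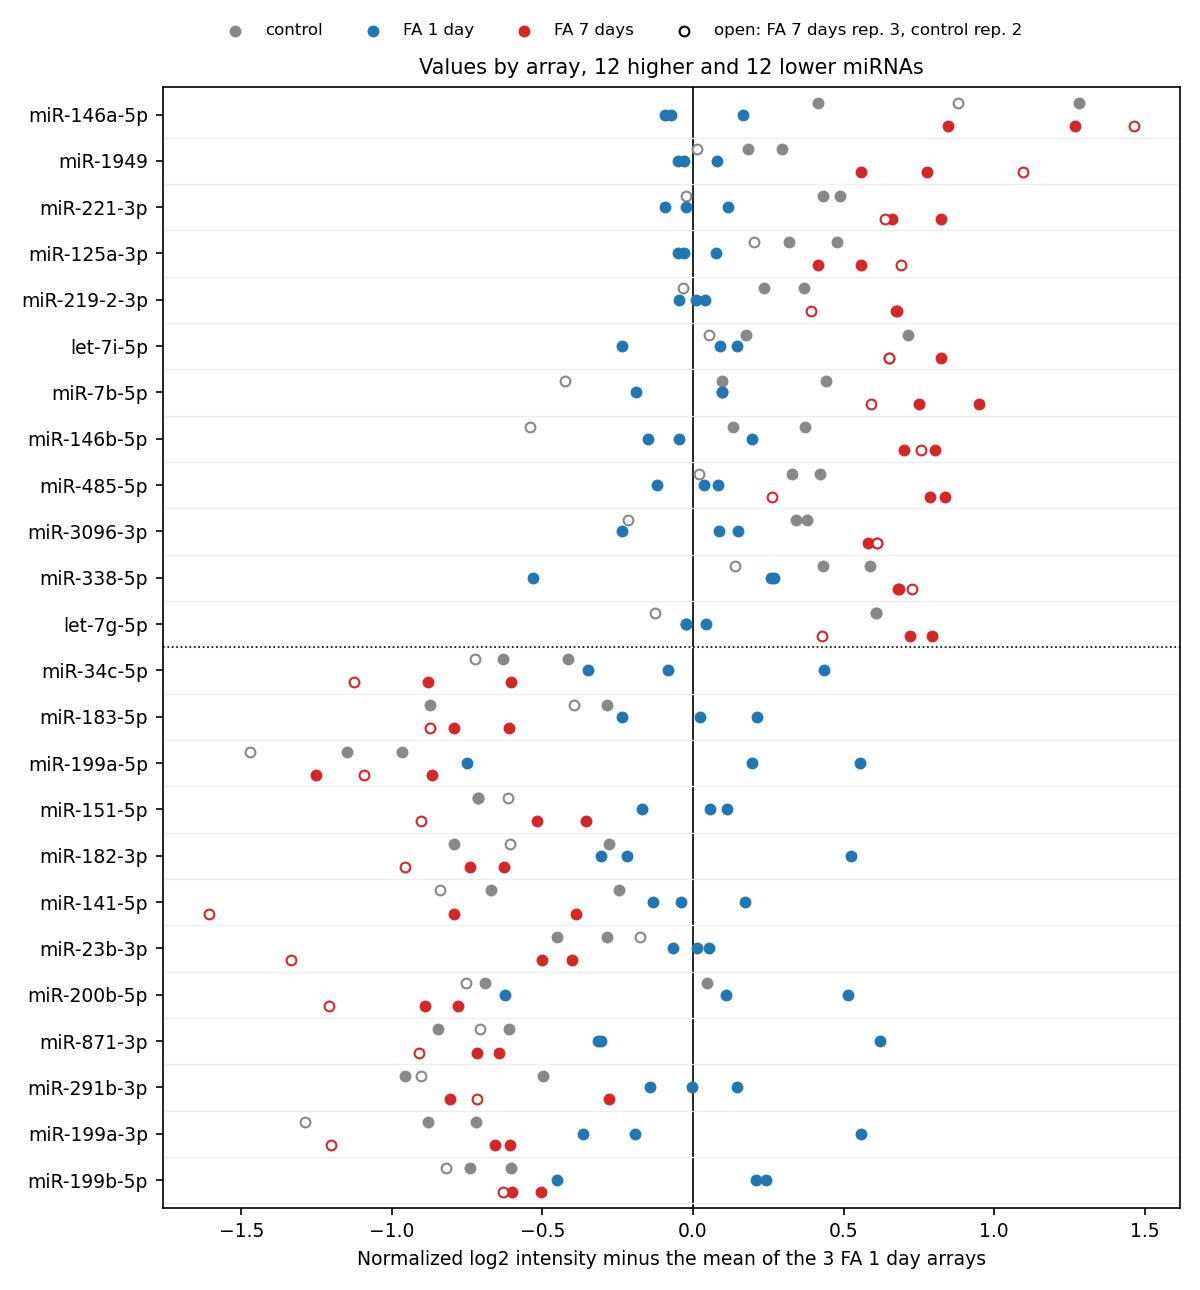
Each of the 12 higher and 12 lower members with the smallest unadjusted p is drawn as 1 row, with 1 point per array on the x axis, the normalized log2 intensity minus the mean of the 3 FA 1 day arrays, for FA 1 day, FA 7 days and control. In all 24 the FA 7 days points lie on 1 side of the FA 1 day points.

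let-7 miRNAs mark differentiated cells and share the seed GAGGUAG. let-7i-5p had 11.22, 11.55 and 11.60 after 1 day and 12.28, 12.11 and 12.11 after 7 days, and let-7g-5p had 12.21, 12.28 and 12.21 after 1 day and 12.96, 13.03 and 12.66 after 7 days. All FA 7 days arrays lay above all FA 1 day arrays, by 0.71 ± 0.22 for let-7i-5p and 0.65 ± 0.23 for let-7g-5p (SE, n = 3 and 3; limma, adjusted p = 0.422 for each). The list of 15 members was split, 7 higher and 8 lower, with a median of -0.04 that was 0.25 without replicate 3 and that changed sign under another scaling. let-7f-5p shows what that array does: its values after 7 days were 9.62, 10.05 and 6.94, so the difference was -0.21 with all arrays and 0.76 without the third. Over the 10 members with the let-7 seed the median was 0.11, and 0.46 without replicate 3.

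miR-125, miR-99 and miR-100 are transcribed with let-7 members from shared clusters. Of their 8 members, 7 were higher and 1 lower after 7 days, with a median of 0.41, and 0.31 without replicate 3, beside a median of -0.00 over all members. miR-125a-3p had 7.15, 7.17 and 7.28 after 1 day and 7.62, 7.76 and 7.89 after 7 days, a difference of 0.55 ± 0.16 (SE, n = 3 and 3; limma, adjusted p = 0.422) with no overlap. miR-125b-5p differed by 0.66, miR-99b-5p by 0.54 and miR-125a-5p by 0.45, and without replicate 3 these were 0.30, 0.46 and 0.22. The miR-29 family, whose targets include messages of the extracellular matrix, had 4 of 5 members higher with a median of 0.27, which was 0.17 without replicate 3, 0.11 without FA 1 day replicate 2, 0.43 without FA 1 day replicate 4 and 0.69 from the deposited ratios. In it, miR-29c-5p had 7.29, 6.98 and 7.26 after 1 day and 7.84, 8.25 and 7.65 after 7 days, with a difference of 0.74 ± 0.29 (SE, n = 3 and 3; limma, adjusted p = 0.534).

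The hairpins of miR-182, miR-96 and miR-183 form a cluster expressed in sensory neurons of the eye, ear and nose. All 5 of its members lay lower after 7 days, at -0.77 to -0.61, with a median of -0.67, or -0.42 when replicate 3 was left out. The closeness of these values rested in part on that array: without it miR-182-5p differed by -0.28 in place of -0.61, and miR-96-5p by -0.22 in place of -0.67. The 4 members detected on all 6 exposed arrays lay at -0.76 to -0.61 and had a median of -0.64. miR-183-5p had 12.78, 12.59 and 12.33 after 1 day and 11.95, 11.77 and 11.69 after 7 days. These groups did not overlap, and the difference was -0.76 ± 0.21 (SE, n = 3 and 3; limma, adjusted p = 0.422). miR-182-3p fell below detection on all FA 7 days arrays, so its difference is a bound, at least 1.32-fold lower, and with it at that bound the median was -0.61. It became a member through FA 1 day alone, where it is higher, so its direction adds nothing to the count of 5. miR-96-5p, at 13.40, 13.03 and 13.24 after 1 day, was at 12.84, 13.17 and 11.63 after 7 days, and its groups overlapped. Both without replicate 3 and with it, the whole cluster lay on 1 side.

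The miR-200 family limits the transcription factors Zeb1 and Zeb2 and is needed for olfactory neurogenesis. Its 5p arms lay below their 1-day values as well, and any effect on Zeb1 and Zeb2 was not measured. miR-200b-5p had 10.09, 8.95 and 9.69 after 1 day and 8.80, 8.69 and 8.37 after 7 days, a difference of -0.96 ± 0.33 (SE, n = 3 and 3; limma, adjusted p = 0.422), and miR-141-5p had 9.28, 9.06 and 8.97 after 1 day and 8.31, 8.71 and 7.5 after 7 days, a difference of -0.93 ± 0.31 (SE, n = 3 and 3; limma, adjusted p = 0.422) that was -0.58 without replicate 3. No FA 7 days array reached an FA 1 day array in either. miR-200a-5p, which shares the seed of miR-200b-5p, had 8.43, 8.25 and 8.01 after 1 day and 7.64, 7.64 and 7.00 after 7 days. The 3p arms differed less, miR-200a-3p by 0.15, miR-429-3p by 0.13, miR-200b-3p by -0.17, miR-141-3p by -0.27 and miR-200c-3p by -0.47. Over the 8 members of the family 2 were higher and 6 lower, with a median of -0.37 and -0.31 without replicate 3.

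The miR-199a and miR-214 hairpins come from the transcript Dnm3os and are known from mesenchymal cells. miR-199a-5p had 8.88, 9.24 and 7.93 after 1 day, 7.82, 7.43 and 7.59 after 7 days and 7.72, 7.21 and 7.54 in the controls. The FA 1 day arrays lay above the others, replicate 4 by little, and the difference was -1.07 ± 0.32 (SE, n = 3 and 3; limma, adjusted p = 0.422), or -1.06 without FA 7 days replicate 3. miR-199a-3p differed by -0.82, or -0.53 without FA 1 day replicate 1, and miR-214-3p by -0.53. miR-199b-5p, detected on no FA 7 days array, was at least 1.33-fold lower. All 4 members of the list were lower with a median of -0.70, -0.64 without replicate 3 and -0.68 with miR-199b-5p at its bound. Only 2 of them were detected on all 6 exposed arrays, with a median of -0.80. miR-199b-5p became a member through FA 1 day alone, where it is higher, so its direction adds nothing to the count of 4. miR-199a-3p, detected on 5 exposed arrays, became a member through 1 exposed group only, so its direction depends in part on the detection rule. The median was -1.53 from the deposited ratios and -1.29 with background subtraction and a floor of 30, both of which lack the offset. The summed signal of the surface epithelium markers ran from 161 to 371 after 1 day and from 157 to 208 after 7 days, and its part in these values was not tested.

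miR-34b and miR-34c are encoded together, are targets of p53 and are abundant in cells with motile cilia. miR-34c-5p had 8.13, 7.61 and 7.35 after 1 day and 6.82, 7.09 and 6.57 after 7 days, with controls at 7.07, 6.97 and 7.28. The groups did not overlap, and the difference was -0.87 ± 0.24 (SE, n = 3 and 3; limma, adjusted p = 0.422). Its neighbours miR-34b-5p and miR-34b-3p differed by -0.36 and -0.13, and miR-34b-5p by -0.04 without replicate 3. miR-151-5p, from an intron of the kinase gene Ptk2, had 9.65, 9.71 and 9.42 after 1 day and 9.08, 9.24 and 8.69 after 7 days, a difference of -0.59 ± 0.19 (SE, n = 3 and 3; limma, adjusted p = 0.422), with no overlap. miR-23b-3p had 12.47, 12.51 and 12.39 after 1 day and 12.05, 11.95 and 11.12 after 7 days. It too did not overlap, and it differed by -0.75, or -0.43 without replicate 3.

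Some of the most extreme differences rested on 1 array. miR-20a-5p, of the miR-17 cluster that is active in dividing progenitors, had the lowest difference of all members, -1.22, with 9.56, 9.89 and 9.44 after 1 day and 9.32, 9.23 and 6.68 after 7 days. With that array left out it was -0.37. The 6 members with its seed AAAGUGC, of miR-17, miR-20, miR-93 and miR-106, were all lower, with a median of -0.47 that was -0.18 without that array. Of these, miR-20a-5p and miR-20b-5p were detected on 5 and 4 of the 6 exposed arrays. Each became a member through 1 exposed group only, so its direction depends in part on the detection rule. miR-223-3p, of myeloid cells, had a difference of -0.88, with FA 1 day replicate 2 at 10.14 where replicates 1 and 4 had 7.99 and 7.5, and the FA 7 days arrays had 7.86, 7.95 and 7.17. Without that FA 1 day array the difference was -0.08. miR-144-3p, of red blood cells, had 10.77, 11.83 and 10.14 after 1 day and 10.14, 9.84 and 9.23 after 7 days, a difference of -1.17 that was -0.72 without FA 1 day replicate 2, and its groups overlapped.

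FA 1 day replicate 2 was high for miR-223-3p and miR-144-3p, and the part of blood in the differences was not tested. Its foreground minus background was 882 for miR-223-3p against 187 and 117 on the other FA 1 day arrays, and 3432 for miR-144-3p against 1588 and 1082. It was also 38040 for miR-124-3p against 19600 and 22510, and 315 for miR-150-5p, of leukocytes, against 278 and 290. From the mean of the 6 exposed arrays, its normalized values deviated by a median of 0.61 in the leukocyte list, against -0.32 and -0.63. In the erythroid list this deviation was 0.35, against 0.28 and -0.09. The leukocyte list had 5 of 6 members higher after 7 days, with a median of 0.29. It was 0.35 without FA 7 days replicate 3, 0.57 without FA 1 day replicate 2, 0.18 without FA 1 day replicate 1 and 0.12 without FA 1 day replicate 4. Over the 5 leukocyte members detected on all 6 exposed arrays the median was 0.10. The other, miR-342-5p, was detected on 4 of these arrays. It became a member through 1 exposed group only, so its direction depends in part on the detection rule. The erythroid list had all 4 lower with a median of -0.36, or -0.29 without FA 7 days replicate 3. From the deposited ratios, which lack miR-144-5p, it was 0.00. Over the 3 detected on all 6 exposed arrays the median was -0.11, with miR-451 at -0.07, miR-3107-5p (also miR-486-5p) at -0.11 and miR-144-3p at -1.17. miR-144-5p, detected on 5 of these arrays, became a member through 1 exposed group only, so its direction depends in part on the detection rule. The summed leukocyte markers ran from 901 to 2433 after 1 day and from 823 to 1860 after 7 days, and the red blood cell markers from 5242 to 9382 and from 3684 to 8988.

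**Figure D3:**
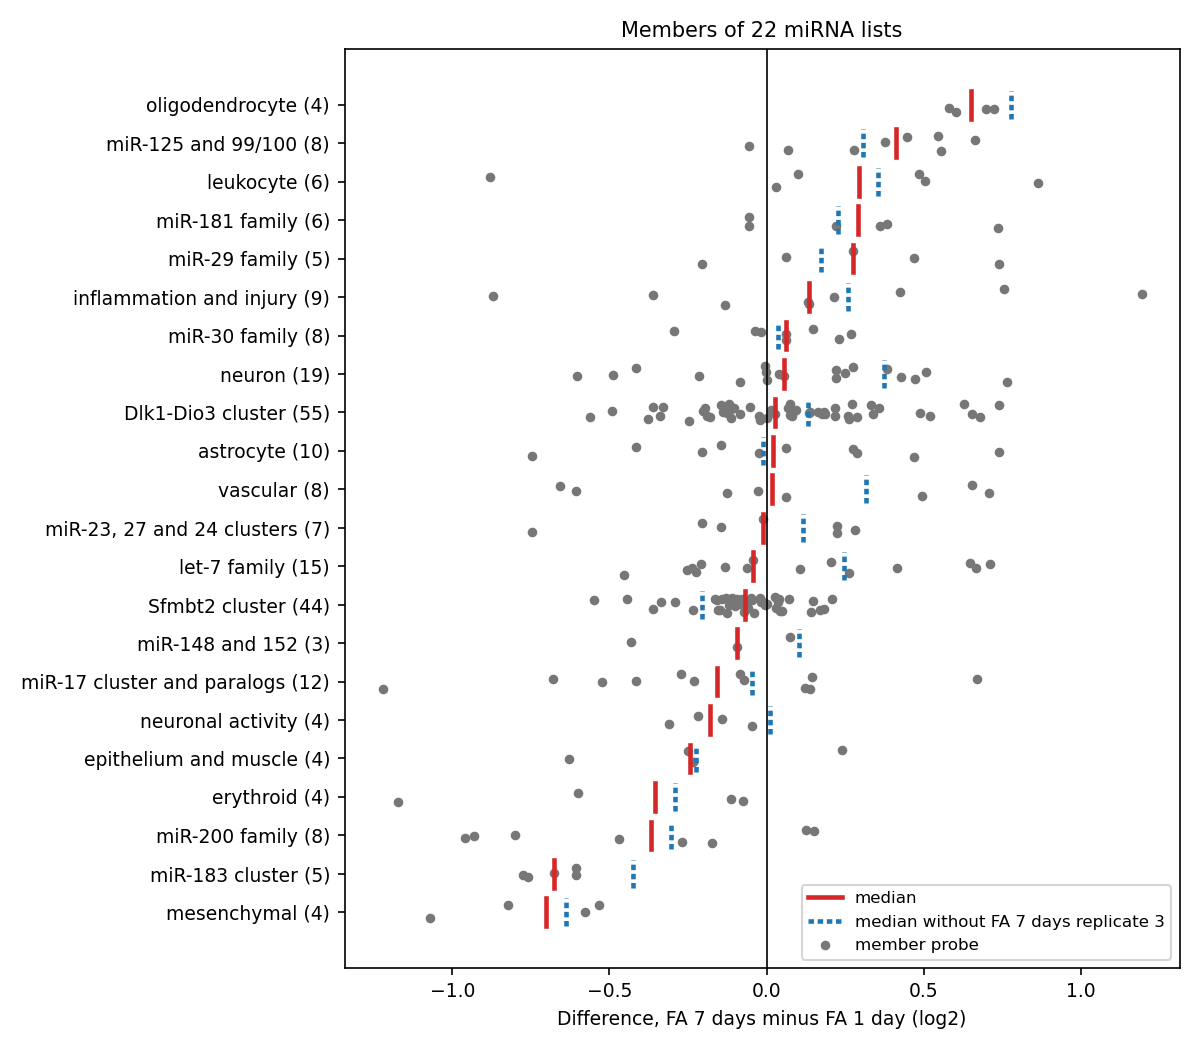
For each of the 22 lists of miRNAs, the points give the difference of each member between FA 7 days and FA 1 day (x axis, log2) and the marks give the list medians with all arrays and without FA 7 days replicate 3. The lists of the miR-183 cluster and of mesenchymal cells lie below 0 and the oligodendrocyte list above it in both, while the let-7, vascular and Dlk1-Dio3 medians change sign under another scaling. The erythroid median is 0.00 from the deposited ratios, which lack its member miR-144-5p.

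The largest groups on the array were 2 long clusters. In the imprinted Dlk1-Dio3 cluster, which is active in neurons, 30 of 55 members were higher and 25 lower, with a median of 0.03 whose sign depended on the scaling, and 0.13 without replicate 3. Its block of 14 members around miR-127, miR-136 and miR-434 had 11 higher with a median of 0.27, and the other block, of 35 members, had a median of -0.10 that was 0.02 without replicate 3. miR-485-5p, of that cluster, had 6.75, 6.55 and 6.71 after 1 day and 7.46, 7.51 and 6.93 after 7 days, without overlap. It was detected on 5 of the 6 exposed arrays, so it became a member through 1 exposed group only. In the rodent-specific cluster in an intron of Sfmbt2, 13 of 44 members were higher and 31 lower, with a median of -0.07 that was -0.21 without replicate 3 and 0.13 without FA 7 days replicate 2. Of 21 genomic clusters with at least 3 members, 4 had all their members on 1 side, and all 4 were lower after 7 days. They were those of miR-183, of miR-132 with miR-212 (which neuronal activity induces), of miR-144 with miR-451 and of miR-34b with miR-34c. Each of them holds a member that was not detected on all 6 exposed arrays. The rule brought in 76 members through FA 1 day only and 10 through FA 7 days only, which tilts the members towards lower values. Small clusters can also lie on 1 side with no shared change, and the count was not tested. The 4 members of the miR-132 cluster had a median of -0.18 that was 0.01 without replicate 3.

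The 2 arms of a hairpin did not always go together. Both arms were members for 98 hairpins, of which 54 had the same sign of difference in both arms, and the arms' differences correlated at 0.316 (Pearson) and 0.248 (Spearman) across hairpins. In 20 of them (20.4%) the ratio of 5p to 3p did not overlap between the groups, a share near the 20.1% of all tested probes whose groups did not overlap. For miR-151 the log2 ratio was 2.43, 2.39 and 2.29 after 1 day and 1.46, 1.55 and 1.17 after 7 days, with controls at 1.72, 1.98 and 1.71. Its 5p arm was lower while miR-151-3p, at 7.23, 7.32 and 7.13 after 1 day and 7.62, 7.69 and 7.52 after 7 days, was higher by 0.38 ± 0.16 (SE, n = 3 and 3; limma, adjusted p = 0.534). let-7i had a 5p to 3p ratio of 3.34, 3.12 and 3.70 after 1 day and 4.15, 3.85 and 5.05 after 7 days. For miR-141 the ratio was -4.56, -4.78 and -4.87 after 1 day and -5.53, -5.12 and -5.53 after 7 days, and miR-141-3p differed by -0.27, or 0.00 without replicate 3. That 0.00 reflects an equal rank on the remaining exposed arrays, to which quantile normalization gives equal values, so it carries no information. With median scaling of all arrays miR-141-3p differed by -0.36. All FA 7 days ratios lay below the FA 1 day ratios for miR-151 and miR-141 and above them for let-7i.

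**Figure D4:**
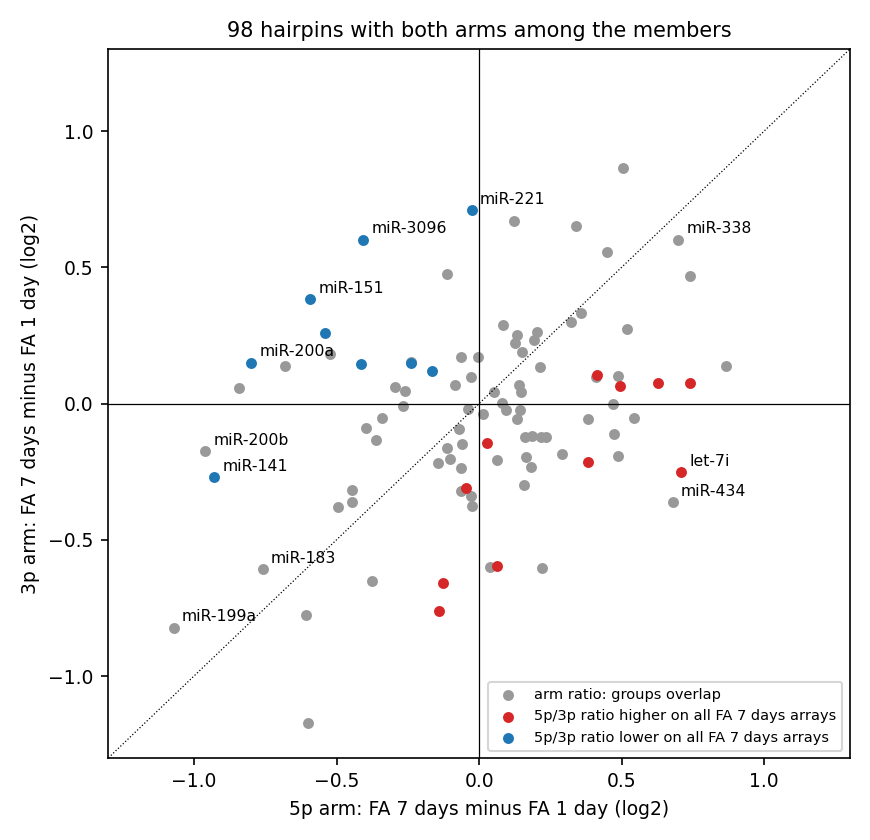
The difference of the 3p arm between FA 7 days and FA 1 day (y axis, log2) is plotted against that of the 5p arm (x axis, log2) for the 98 hairpins with both arms among the members. Points lie in all 4 quadrants, and miR-151 lies where the 5p arm is lower and the 3p arm higher.

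Among the members with an unadjusted p under 0.05, the control mean was more often nearer to the lower of the exposed means. Of the 21 higher members with an unadjusted p under 0.05, 19 had a control mean between the exposed means, which was nearer to FA 1 day in 15 of the 21 and nearer to FA 7 days in 6. Of the 17 lower members, 10 had a control mean between them, and it was nearer to FA 7 days in 13 and nearer to FA 1 day in 4. For miR-199a-5p and miR-34c-5p, then, the FA 1 day arrays lay above both other groups, replicate 4 by little in each. For miR-221-3p the control mean lay between the exposed means, with controls at 9.53, 9.08 and 9.59, the second of them within the FA 1 day range. These counts describe members chosen by their difference, and they carry no test. The same counts over all members were not made. Control replicate 2 enters each control mean. It lay at a root mean square distance of 0.887 from the mean of the exposed arrays, against 0.419 and 0.285 for control replicates 1 and 3.

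Other members near the ends of the comparison were miR-3096-3p, miR-871-3p and miR-291b-3p, the last from the miR-290 cluster of embryonic stem cells. miR-3096-3p had 9.40, 9.46 and 9.08 after 1 day and 9.92, 9.89 and 9.92 after 7 days, and miR-291b-3p had 7.67, 7.81 and 7.95 after 1 day and 7.00, 7.53 and 7.09 after 7 days. miR-871-3p had 7.01, 7.02 and 7.95 after 1 day and 6.60, 6.68 and 6.41 after 7 days, a difference of -0.76 that was -0.44 without FA 1 day replicate 4. None of these groups overlapped. miR-3066-5p and miR-697 were detected on all FA 1 day arrays and on no FA 7 days array, and were at least 1.13-fold and 1.27-fold lower. No member showed the reverse.

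Large differences with wide errors were also found. miR-204-5p, abundant in the choroid plexus and the retinal pigment epithelium, had 8.71, 8.17 and 8.25 after 1 day and 9.11, 9.87 and 8.75 after 7 days, a difference of 0.87 ± 0.57 (SE, n = 3 and 3; limma, adjusted p = 0.812) that was 0.55 without FA 7 days replicate 2. miR-342-3p, from an intron of Evl, had 7.95, 9.61 and 7.88 after 1 day and 9.51, 9.47 and 9.04 after 7 days. Its FA 1 day replicate 2 lay above all FA 7 days arrays while the other FA 1 day arrays lay below them. miR-205-5p, of surface epithelium, had 8.15, 7.46 and 7.10 after 1 day and 6.54, 6.64 and 7.64 after 7 days, and its groups overlapped. Its difference was -0.63, but -0.99 without FA 7 days replicate 3 and -0.33 without FA 1 day replicate 1.

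The remaining lists had medians between -0.24 and 0.29, several of which turned sign without FA 7 days replicate 3. The miR-181 family had 4 of 6 members higher with a median of 0.29 (0.23 without that array, and 0.14 without FA 1 day replicate 2 or FA 7 days replicate 2). The miR-30 family had 5 of 8 higher with 0.06 (0.04 without it), and the list of inflammation and injury 6 of 9 with 0.13 (0.26). The miR-23, miR-27 and miR-24 list had 3 of 7 higher with a median of -0.01 (0.12), the astrocyte list 5 of 10 with 0.02 (-0.01) and the miR-148 and miR-152 list 1 of 3 with -0.10 (0.10). The miR-17 cluster and its paralogs had 4 of 12 higher with a median of -0.16 (-0.05, and -0.04 without FA 1 day replicate 1). The list of surface epithelium and muscle had 1 of 4 higher with -0.24 (-0.22, and -0.15 without FA 1 day replicate 2), and the list of neuronal activity 0 of 4 with -0.18 (0.01). From the deposited ratios, which have no offset, the median was 0.32 for the miR-30 family, -0.54 for surface epithelium and muscle, 0.48 for the leukocyte list and 0.69 for the list of miR-125, miR-99 and miR-100. Across the 343 members with a sequence, the difference correlated with GC content at 0.133, and at -0.117 without replicate 3.

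**Figure D5:**
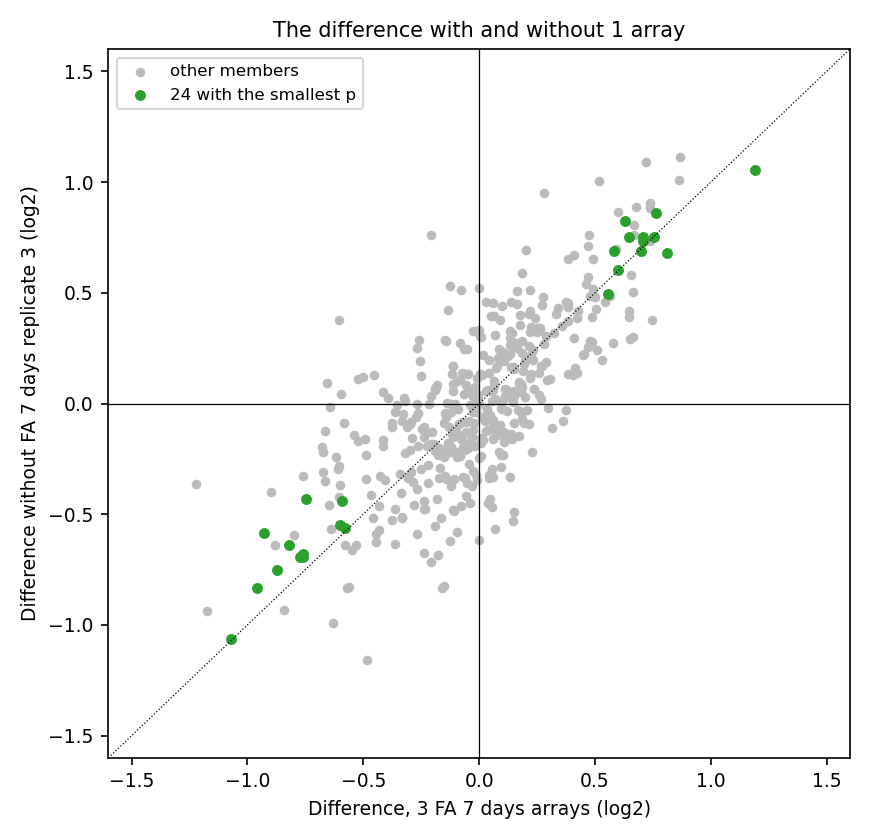
The difference between FA 7 days and FA 1 day without FA 7 days replicate 3 (y axis, log2) is plotted against the difference with all 3 arrays (x axis, log2) for the 454 members. The correlation is 0.755, and 107 members change direction.

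Apart from miR-124-3p, which quantile normalization fixes and which differed by 0.35 with median scaling and 0.44 from the deposited ratios, the steadiest bright members were miR-138-1-3p, miR-330-5p, miR-381-3p and miR-490-5p, those with the smallest spread over the 6 exposed arrays at or above the median level. miR-138-1-3p differed by -0.09, and miR-381-3p by 0.07, or 0.02 without FA 7 days replicate 3 and 0.32 from the deposited ratios. In miR-21-5p, which is raised by injury in many tissues, the difference was 0.21 ± 0.19 (SE, n = 3 and 3; limma, adjusted p = 0.907), with a 95% interval from -0.21 to 0.64.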

How the data were processed

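Total RNA carried the dye Hy3 on its 3′ end and was hybridised to Exiqon miRCURY probes, per the labels' protocols. For 12312 spots on each of 9 arrays the authors deposited 2 intensity values, the foreground and the foreground less the local background, per the file headers; no source used here names the scanner. They also deposited a ratio table; set against the intensities, each column equals the spot median of background-subtracted signal over a single divisor for that array. Its scale is linear, and it served as an alternative.

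The foreground was corrected per spot with normexp (offset 50; limma 3.58.1, R 4.3.3), averaged over a probe's spots (median of 4), quantile normalized over 1084 miRNA probes and put on a log2 scale. Quantile normalization hides any shift shared by most miRNAs. A group-means model (lmFit, eBayes) was fitted to all 9 arrays, with two-sided tests and p-values adjusted by Benjamini and Hochberg's method over the 462 mouse probes of at least 30 above background on all arrays of any group (threshold 0.05). At most 8.85% of spots held equal values on 2 exposed arrays, so all were kept. The number of arrays limits the precision. For a probe that no array of a group detected, the bound divides the brighter mean by a dimmer mean in which each array takes its lowest detected signal or the probe's own, whichever is larger.

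Named are the 12 higher and 12 lower members of smallest unadjusted p, list members with p under 0.05 or else the 2 of smallest p, the extremes, the brightest, the steadiest, the probes at the threshold and the other arms. Others (let-7f-5p, miR-21-5p, miR-9-5p, miR-7a-5p, miR-128-3p, miR-17-5p and further list members given by their difference alone) were chosen after their values were seen. The members and the 22 lists were chosen with earlier results of these data known, and lists are described by counts and medians. Sequences and positions came from RefSeq (GRCm38.p6), which matched 343 members by name; the files name no build. The labels give neither slide nor scan day, so batches could not be examined.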

Additional observations from a re-analysis of the deposited data

How the results depend on the processing

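The count of calls at an adjusted p under 0.05 was 0 under the 21 alternatives other than array weights, which gave 23. The share of tested probes with an unadjusted p under 0.05, 8.23% as reported, was 4.76% without normalization between arrays, 7.30% over all mouse probes (75 probes), 21.4% without the arrays that stand apart (FA 7 days replicate 3 and control replicate 2), 27.3% with array weights, and 3.46% with the replicate number as a replicate block (16 probes, 0 called). Leaving out 1 array at a time gave 4.98% (without FA 1 day replicate 1) to 12.6% (without control replicate 2) and 0 calls. The 93 probes without overlap became 48 without normalization between arrays, 180 over all mouse probes and 211 without both arrays that stand apart, and ran from 93 to 211 as 1 array at a time was left out, highest without FA 7 days replicate 3; with fewer arrays in a group, separation is easier. FA 1 day and FA 7 days share replicate numbers 1 and 2 only; deviations of those pairs from their group means correlated at 0.26 and -0.00, so the numbers were not taken as a pairing. For the 24 members of smallest unadjusted p, 511 values under other settings kept their direction and their side of the threshold, and 14 passed it, with array weights, in the same direction. These 24 were chosen by p on the same arrays, so a kept direction is no separate support. Of the list medians, 444 values moved by less than the spread between replicates and 40 by more. The cause of these shifts was not tested. Signal over background limits the dimmer members: those near 30 can drop below detection on 1 array, as on FA 7 days replicate 3.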
